A study of Mus musculus with 7 samples.

Results

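The genes described here carry a cell through DNA replication and mitosis. They are 42 protein-coding genes, 18 of S phase and 24 of mitosis, taken by exact symbol from the 55401 rows of a gene count matrix. The matrix holds RNA-Seq of cartilage from mouse knees after destabilization of the medial meniscus (DMM), a surgical model of osteoarthritis. By their labels, 4 samples were from WT and 3 from Trpc1-/- mice, which lack TRPC1, an ion channel of calcium signaling. Both groups were male C57BL/6J mice, 10 weeks old when the right knee underwent DMM, and were euthanized 2 weeks later. The deletion is not restricted to chondrocytes, so each cell type in a Trpc1-/- sample carried it. Each sample pooled 2 to 3 mice. Subchondral bone was taken with the cartilage according to the study's methods. These also give 3 WT and 4 Trpc1-/- samples where the labels give 4 and 3, and the labels were used. Sham-operated knees were not analysed here, so the effect of DMM itself was not measured.

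A dividing cell first licenses its origins of replication by loading the MCM2-7 helicase, then activates that helicase, copies its DNA with the PCNA clamp and a fresh supply of nucleotides, and later condenses and separates its chromosomes under CDK1, PLK1 and the Aurora kinases. E2F factors activate the S-phase genes around the start of replication, and many genes of mitosis are switched on later through a CHR element, often near a CCAAT box. Chondrocytes of adult articular cartilage rarely divide. Marrow precursors of red and white blood cells divide rapidly, and erythroblasts keep dividing while they fill with hemoglobin.

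The promoters of both classes are shown first because their sequence is one feature that sets S-phase genes apart from mitotic genes and that expression did not choose. RefSeq (build GRCm38.p6) gave a promoter of 300 bases, from 250 bases before to 50 after the start of transcription, for 34 of the 42 genes, 14 of S phase and 20 of mitosis. Gins1, Gins2, Ccne2, Mcm4, Aurkb, Tpx2, Ccna2 and Kif20a had none there. Both strands were searched for E2F motifs (TTTCCCGC, TTTGGCGC, TTTCGCGC and TTTGCCGC), the CHR (TTTGAA and TTTAAA, of which the latter reads the same on both strands) and the CCAAT box (CCAAT). An E2F motif was present in 40% of S-phase promoters (6 of 15, one gene having 2 promoters) and 4.76% of mitotic promoters (1 of 21), against 2.26% of all 32851 promoters of the table. A CHR was present in 33.3% of S-phase and 90.5% of mitotic promoters (19 of 21), against 27.6% of all. Prc1 had 2 of the 21 mitotic promoters, which overlapped, and both held a CHR and a CCAAT box. A CCAAT box was present in 66.7% and 85.7%, against 37.4% of all. Mitotic promoters thus mostly held a CHR and S-phase promoters more often an E2F motif. A match is a description of the sequence and not evidence of a bound site. Of the promoters with an E2F motif or a CHR, the 2 genes of each class with the smallest P were printed, which were Rrm2 (chr12:24708004-24708303, plus strand), Ccne1 (chr7:38107441-38107740, minus strand), Plk1 (chr7:122159185-122159484, plus strand) and Prc1 (chr7:80294201-80294500, plus strand). Since neither S-phase promoter held an E2F motif, Cdc6 (chr11:98907901-98908200, plus strand) and Mcm7 (chr5:138171834-138172133, minus strand), S-phase genes that did, were added after the values had been seen. Capitals mark the motif matches, and each sequence runs 5′ to 3′ on the strand of its gene.
Rrm2: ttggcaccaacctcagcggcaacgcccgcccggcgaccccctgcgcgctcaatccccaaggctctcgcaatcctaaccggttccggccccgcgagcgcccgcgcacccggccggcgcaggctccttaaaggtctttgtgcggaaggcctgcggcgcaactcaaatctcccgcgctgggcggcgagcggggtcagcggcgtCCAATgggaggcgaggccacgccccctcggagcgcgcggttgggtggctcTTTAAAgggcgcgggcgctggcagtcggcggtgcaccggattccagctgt
Ccne1: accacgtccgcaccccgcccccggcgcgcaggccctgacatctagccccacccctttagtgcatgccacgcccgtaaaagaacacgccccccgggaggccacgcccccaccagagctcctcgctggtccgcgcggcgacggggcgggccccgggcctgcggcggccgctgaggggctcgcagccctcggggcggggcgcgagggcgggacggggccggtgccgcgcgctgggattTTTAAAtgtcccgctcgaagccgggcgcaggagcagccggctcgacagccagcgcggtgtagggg
Plk1: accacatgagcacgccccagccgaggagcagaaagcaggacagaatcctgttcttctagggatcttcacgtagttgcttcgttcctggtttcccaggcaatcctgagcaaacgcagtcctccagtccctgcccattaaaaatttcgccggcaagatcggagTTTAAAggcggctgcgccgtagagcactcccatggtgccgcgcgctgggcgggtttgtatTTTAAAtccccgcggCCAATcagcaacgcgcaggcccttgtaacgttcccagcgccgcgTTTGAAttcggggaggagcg
Prc1: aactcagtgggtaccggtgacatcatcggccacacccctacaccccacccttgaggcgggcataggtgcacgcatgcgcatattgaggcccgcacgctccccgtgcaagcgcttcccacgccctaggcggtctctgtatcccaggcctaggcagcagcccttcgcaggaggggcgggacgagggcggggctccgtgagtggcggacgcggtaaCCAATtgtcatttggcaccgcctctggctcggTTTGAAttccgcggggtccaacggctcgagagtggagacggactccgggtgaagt
Cdc6: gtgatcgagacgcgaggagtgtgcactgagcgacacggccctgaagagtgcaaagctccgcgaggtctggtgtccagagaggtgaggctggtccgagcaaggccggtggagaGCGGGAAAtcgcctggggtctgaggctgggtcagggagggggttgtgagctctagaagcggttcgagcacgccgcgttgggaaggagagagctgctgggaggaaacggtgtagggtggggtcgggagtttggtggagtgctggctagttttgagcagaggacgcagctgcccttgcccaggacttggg
Mcm7: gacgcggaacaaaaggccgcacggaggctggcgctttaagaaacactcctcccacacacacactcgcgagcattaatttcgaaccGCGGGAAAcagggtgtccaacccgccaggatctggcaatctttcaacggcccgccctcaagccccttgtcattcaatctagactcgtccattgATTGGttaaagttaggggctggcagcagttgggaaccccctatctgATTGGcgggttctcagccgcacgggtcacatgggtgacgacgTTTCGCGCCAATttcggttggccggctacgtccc
Rrm2 held 1 CHR and 1 CCAAT box, Ccne1 held 1 CHR, Plk1 held 3 CHR matches and 1 CCAAT box, and Prc1 held 1 of each. Cdc6 held 1 E2F motif on the opposite strand. Mcm7 held 2 E2F motifs and 3 CCAAT boxes, and 1 of each overlapped in the run TTTCGCGCCAAT.

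Counts were scaled to a common library size by the TMM method of edgeR and are given as CPM, where 1 CPM is the same share of the scaled library in each sample, and log2 fold changes (logFC) are given as Trpc1-/- against WT. Total counts per sample lay between 52142451 and 118254070, and WT replicate 1 had the fewest. It also had the largest share of mt-Rnr2, a mitochondrial ribosomal RNA, at 19.6% of its counts, where the other samples had 12.3% to 15.4%. Trpc1 itself was lower in the knockout, where its level was 3.39 ± 0.379 CPM (SD, n = 3) against 4.62 ± 0.229 CPM (SD, n = 4). These counts cover the whole gene, so they do not measure the deleted exon. Markers of chondrocytes were present, with Col2a1, the main collagen of cartilage, between 1453 and 3300.0 CPM. Marrow markers were as well, with Hbb-bs, a beta globin, between 6097 and 20390.0 CPM. The tissue label therefore covers only some of the cells sampled, and the cells that transcribed the 42 genes were not identified.

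All 42 genes passed the filter of more than 1 CPM in at least 2 samples, with at least 321 counts in each sample, and all 42 had a logFC above 0. Over the 16429 genes tested, 48.1% had a logFC above 0. The differences were small, from 0.09 for Kif23 to 0.49 for Pcna, with a median of 0.27 over the 42 genes, 0.30 over the S-phase genes, 0.25 over the mitotic genes and −0.0088 over all genes tested. The quasi-likelihood test of edgeR called none of them at an adjusted P under 0.05 and 0.0% of all genes, and the smallest adjusted P among the 42 was 0.395 in edgeR, for Rrm2. Without adjustment, 13 were higher at an edgeR P under 0.05 and 0 were lower, against 4.51% of all genes higher. DESeq2 called 2 of them higher, Rrm2 (adjusted P = 0.0186 in DESeq2) and Mki67 (adjusted P = 0.0158 in DESeq2), against 0.962% of all genes. In 22 of the 42, each Trpc1-/- sample lay above each WT sample, which held for 7.15% of all genes. In samples of whole tissue, more cells of a type and more RNA per cell cannot be told apart. The labels name the samples biological replicates, so the P values measure the spread between pools of mice.

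**Figure D1:**
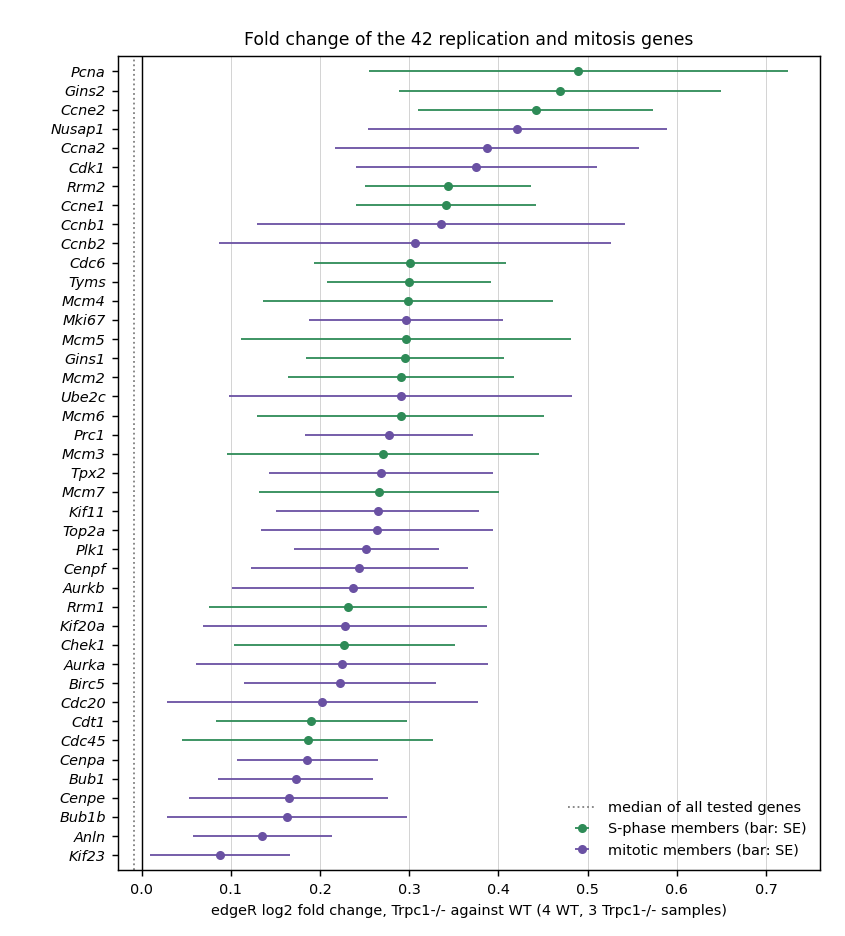
Log2 fold change of each of the 42 genes by edgeR, Trpc1-/- against WT, with 1 SE as the bar. S-phase genes are green and mitotic genes purple, the dotted line is the median of all genes tested (−0.0088), and all 42 points lie to its right, between 0.09 and 0.49.

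These counts rested on single samples to differing degrees. WT replicate 1 was the lowest of the 7 samples for 36 of the 42 genes, and for 38.0% of all genes tested. Trpc1-/- replicate 1 was the highest for 42 of 42, and for 18.7% of all genes. Without WT replicate 1, all 42 genes kept a logFC above 0, and their median was 0.18. In that fit, 21 of the 42 had an unadjusted edgeR P under 0.05 and were higher, against 8.53% of all genes. DESeq2 then called Rrm2, Ccne2, Gins2, Mki67 and Cenpf, 5 genes, against 3.2% of all genes. Without Trpc1-/- replicate 1, all 42 genes again had a logFC above 0, with a median of 0.20, but 3 were higher at an unadjusted edgeR P under 0.05, against 2.34% of all genes. That number was 8 without WT replicate 2, against 3.01% of all genes, and 8 without Trpc1-/- replicate 3, against 2.13%. It was 14 without WT replicate 3, 10 without WT replicate 4 and 12 without Trpc1-/- replicate 2, against 4.64%, 3.58% and 3.93% of all genes. Of the 2 DESeq2 calls, 0 were made without WT replicate 2, WT replicate 4 or Trpc1-/- replicate 3, where DESeq2 called 0.237%, 0.613% and 0.141% of all genes higher. One of them was made without WT replicate 3 (Rrm2, against 0.545% of all genes) or Trpc1-/- replicate 1 (Mki67, against 0.287%). Without Trpc1-/- replicate 2, DESeq2 called 4 of the 42 genes, Rrm2, Tyms, Mki67 and Cenpa, against 1.03% of all genes.

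**Figure D2:**
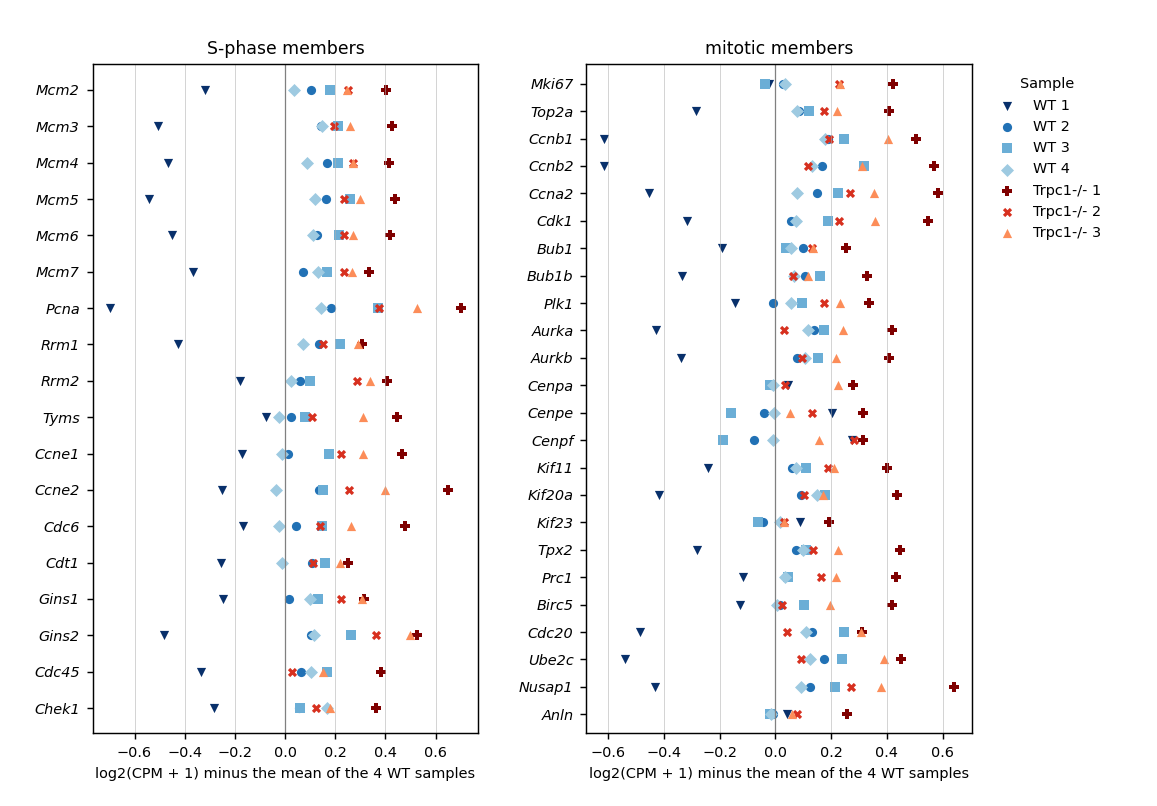
Level of each gene in each sample as log2(CPM + 1) minus the mean of the 4 WT samples, with S-phase genes on the left and mitotic genes on the right. WT samples are blue and Trpc1-/- samples red to orange, WT replicate 1 is the leftmost point in 36 of the 42 rows, and Trpc1-/- replicate 1 is the rightmost in 42.

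The 6 subunits of the MCM2-7 helicase, which unwinds DNA ahead of the replication fork, had nearly equal logFC values, from 0.27 to 0.30. Mcm2 was at 82.2, 111, 117, and 105 CPM in WT replicates 1 to 4 and at 136, 123, and 122 CPM in Trpc1-/- replicates 1 to 3 (logFC 0.29, SE 0.13, adjusted P = 0.501 in edgeR). Mcm4 was at 71.0, 111, 114, and 105 CPM in WT and at 132, 119, and 119 CPM in Trpc1-/- samples. Mcm6 was at 129, 193, 205, and 191 CPM in WT and at 237, 208, and 213 CPM in Trpc1-/- samples. In each of them WT replicate 1 was low and the groups did not overlap. Mcm7 was at 98.2, 133, 143, and 139 CPM in WT and at 161, 149.7, and 153 CPM in Trpc1-/- samples, again without overlap. Mcm3 was at 62.2, 98.3, 103, and 98.6 CPM in WT and at 119.7, 102, and 106 CPM in Trpc1-/- samples (logFC 0.27, SE 0.17, adjusted P = 0.598 in edgeR). Its groups overlapped, as did those of Mcm5. Of the 6 subunits, 0 had an unadjusted edgeR P under 0.05, and 3 had one without WT replicate 1. Of all genes, 4.51% were higher at such a P, and 8.53% without WT replicate 1. Measured per kilobase of annotated exon, the balance of the 6 subunits differed little between samples. Mcm6 made up between 23.1% and 23.4% of their summed CPM per kilobase, and Mcm2, the least abundant on that scale, between 8.59% and 9.93%. Mcm7 hosts the microRNA genes Mir25 and Mir93 on the same strand, and their reads cannot be told apart from its own.

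Loading of the helicase and its activation are carried out by Cdc6 and Cdt1 and by the GINS complex with Cdc45. Cdc6 was at 48.8, 56.6, 60.8, and 54.0 CPM in WT and at 76.7, 60.6, and 66.1 CPM in Trpc1-/- samples (logFC 0.30, SE 0.11, adjusted P = 0.455 in edgeR). The groups overlapped by a narrow margin, as WT replicate 3 lay just above Trpc1-/- replicate 2. Gins2 had the second-largest logFC of the 42 genes. It was at 6.77, 10.6, 12.0, and 10.8 CPM in WT and at 14.6, 12.9, and 14.3 CPM in Trpc1-/- samples (logFC 0.47, SE 0.18, adjusted P = 0.474 in edgeR). Gins1 was at 8.75, 10.7, 11.7, and 11.4 CPM in WT and at 13.4, 12.5, and 13.3 CPM in Trpc1-/- samples (adjusted P = 0.466 in edgeR). Neither GINS gene overlapped between the groups. Cdc45 was at 22.9, 30.4, 32.8, and 31.3 CPM in WT and at 38.2, 29.7, and 32.4 CPM in Trpc1-/- samples (logFC 0.19, SE 0.14, adjusted P = 0.64 in edgeR). Trpc1-/- replicates 2 and 3 lay inside the WT range there. Cdt1 had a logFC of 0.19 with groups that overlapped.

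The clamp and the enzymes of nucleotide supply held the gene with the smallest edgeR P of the 42, Rrm2. Rrm2 (chr12:24708241-24714146) is the regulated subunit of ribonucleotide reductase, which makes deoxyribonucleotides, and was at 133, 158, 162, and 154 CPM in WT and at 201, 185, and 192 CPM in Trpc1-/- samples. WT replicate 1 was again lowest, the groups did not overlap, and the logFC was 0.34 (SE 0.09, adjusted P = 0.395 in edgeR, adjusted P = 0.0186 in DESeq2). Leaving out single samples gave logFC values between 0.28 and 0.38. Rrm1, the large subunit of the same enzyme, was at 146, 216, 229, and 206 CPM in WT and at 243, 218, and 240.2 CPM in Trpc1-/- samples (logFC 0.23, SE 0.16, adjusted P = 0.605 in edgeR). Here the groups overlapped, and WT replicate 1 stood far below the other 3. Tyms, which makes thymidylate, was at 41.8, 44.8, 46.7, and 43.4 CPM in WT and at 60.5, 47.7, and 55.0 CPM in Trpc1-/- samples (logFC 0.30, SE 0.09, adjusted P = 0.41 in edgeR). WT replicate 1 was close to the other WT samples for this gene. Pcna, the sliding clamp of the DNA polymerases, had the largest logFC of the 42 genes and one of the widest errors. It was at 89.0, 165, 188, and 160.0 CPM in WT and at 236, 188, and 209 CPM in Trpc1-/- samples (logFC 0.49, SE 0.23, adjusted P = 0.521 in edgeR). WT replicate 3 and Trpc1-/- replicate 2 were almost level, and without WT replicate 1 the logFC was 0.30. The processed copy Pcna-ps2 held counts equal to between 4.75% and 5.47% of those of Pcna, so that some reads may have been exchanged between them.

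Cyclin E drives entry into S phase with its kinase. Ccne1 was at 26.8, 30.6, 34.4, and 30.2 CPM in WT and at 42.4, 35.6, and 37.9 CPM in Trpc1-/- samples (logFC 0.34, SE 0.10, adjusted P = 0.407 in edgeR). Ccne2 was at 42.9, 56.4, 57.1, and 50.0 CPM in WT and at 81.0, 61.4, and 67.9 CPM in Trpc1-/- samples (logFC 0.44, SE 0.13, adjusted P = 0.408 in edgeR). Both cyclins were higher in each Trpc1-/- sample than in each WT sample. Chek1, the kinase of the replication checkpoint, was at 13.2, 16.9, 17.0, and 18.3 CPM in WT and at 21.2, 17.8, and 18.5 CPM in Trpc1-/- samples (adjusted P = 0.545 in edgeR). WT replicate 4 overlapped the Trpc1-/- samples. Over the 18 S-phase genes, 7 were higher at an unadjusted edgeR P under 0.05, against 4.51% of all genes. In 11 of them, each Trpc1-/- sample lay above each WT sample, against 7.15% of all genes.

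Among the cyclins and kinases of mitosis, Ccna2, a cyclin of S phase and early mitosis, was at 136, 207, 218, and 197 CPM in WT and at 280.0, 225, and 238 CPM in Trpc1-/- samples (logFC 0.39, SE 0.17, adjusted P = 0.504 in edgeR). Cdk1, the kinase that starts mitosis, was at 57.6, 74.8, 82.0, and 75.7 CPM in WT and at 105, 84.5, and 92.3 CPM in Trpc1-/- samples (logFC 0.38, SE 0.13, adjusted P = 0.455 in edgeR). Plk1, a kinase of spindle assembly and mitotic exit, was at 27.9, 30.8, 33.2, and 32.2 CPM in WT and at 39.3, 35.0, and 36.5 CPM in Trpc1-/- samples (logFC 0.25, SE 0.08, adjusted P = 0.426 in edgeR). None of these 3 genes overlapped between the groups. Aurka, the Aurora kinase of spindle poles, was at 25.2, 37.7, 38.7, and 37.2 CPM in WT and at 46.1, 35.0, and 40.7 CPM in Trpc1-/- samples (logFC 0.22, SE 0.16, adjusted P = 0.633 in edgeR). Trpc1-/- replicate 2 lay below 3 of the 4 WT samples. The B cyclins Ccnb1 and Ccnb2, partners of Cdk1, and Aurkb had logFC values of 0.34, 0.31 and 0.24 and overlapping groups. Ccnb1 shares sequence with the processed copy Ccnb1-ps, whose counts equaled 3% to 3.36% of its own.

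The genes of the spindle checkpoint and the centromere had a median logFC of 0.18, and of 0.19 without WT replicate 1. Bub1, a checkpoint kinase, was at 42.4, 52.0, 49.8, and 50.4 CPM in WT and at 58.1, 53.2, and 53.3 CPM in Trpc1-/- samples (adjusted P = 0.53 in edgeR). Its groups did not overlap, although WT replicate 2 came close to the lowest of the Trpc1-/- samples. Bub1b, which encodes the checkpoint protein BubR1, was at 65.1, 88.7, 92.3, and 86.5 CPM in WT and at 104, 86.2, and 89.4 CPM in Trpc1-/- samples (logFC 0.16, SE 0.13, adjusted P = 0.667 in edgeR). Only Trpc1-/- replicate 1 lay above the WT samples. Cenpa, the histone variant of centromeres, was at 71.6, 68.7, 68.4, and 69.0 CPM in WT and at 84.5, 71.1, and 81.3 CPM in Trpc1-/- samples (logFC 0.19, SE 0.08, adjusted P = 0.499 in edgeR). WT replicate 1 was the highest of the WT samples and overlapped Trpc1-/- replicate 2. In Cenpe and Cenpf, which are singled out after their values were seen, WT replicate 1 was also the highest WT sample and the groups overlapped. Cenpf was at 206, 162, 149.6, and 169.8 CPM in WT and at 213, 208, and 190.3 CPM in Trpc1-/- samples (logFC 0.24, SE 0.12, adjusted P = 0.528 in edgeR). Without WT replicate 1 its logFC was 0.34, with an adjusted P of 0.000901 in DESeq2. Birc5, the survivin of the chromosomal passenger complex, had a logFC of 0.22 and overlapping groups.

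Of the proteins that build the spindle, shape the chromosomes and divide the cell, Mki67 (chr7:135689784-135716361), which encodes the proliferation antigen Ki67, had the highest level per length. It was at 1670.2, 1729, 1654, and 1741 CPM in WT and at 2276, 1988, and 1995 CPM in Trpc1-/- samples. The 4 WT samples lay close together and each Trpc1-/- sample was well above them (logFC 0.30, SE 0.11, adjusted P = 0.457 in edgeR, adjusted P = 0.0158 in DESeq2). Unlike 36 of the 42 genes, Mki67 was not lowest in WT replicate 1. Its CPM was between 27.2% and 33.5% of the summed CPM of the 42 genes, and per kilobase of exon it stood at 169 CPM in WT and 207 CPM in Trpc1-/- samples, the highest mean level of the 42. Next per kilobase were Top2a (63.6 and 76.3), Pcna (62.6 and 88.0) and Rrm2 (54.8 and 69.5), and the lowest was Gins2 (2.45 and 3.41). Top2a, the topoisomerase that untangles sister chromosomes, was at 467, 605, 619.8, and 601 CPM in WT and at 756, 644, and 665 CPM in Trpc1-/- samples (adjusted P = 0.528 in edgeR). Top2a overlaps the small gene Gm23451 on the same strand.

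Kinesins and microtubule partners came next. Kif11, which pushes the spindle poles apart, was at 176, 217, 225, and 219 CPM in WT and at 275, 237, and 241 CPM in Trpc1-/- samples (adjusted P = 0.499 in edgeR). Tpx2, which targets Aurora A to the spindle, was at 72.9, 93.6, 96.0, and 95.4 CPM in WT and at 122, 97.6, and 104 CPM in Trpc1-/- samples (adjusted P = 0.514 in edgeR). In both of them WT replicates 2 to 4 lay close together and WT replicate 1 stood below. Prc1, which bundles the central spindle, was at 114, 127, 128, and 127 CPM in WT and at 167, 139, and 144 CPM in Trpc1-/- samples (logFC 0.28, SE 0.09, adjusted P = 0.44 in edgeR). Nusap1, a protein of spindle microtubules, was at 78.2, 115, 123, and 113 CPM in WT and at 166, 128, and 138 CPM in Trpc1-/- samples (logFC 0.42, SE 0.17, adjusted P = 0.479 in edgeR). None of these 4 genes overlapped between the groups. For Anln and Kif23, which act in cytokinesis, the differences were smaller. Anln, which encodes the scaffold anillin, was at 103, 99.1, 98.5, and 98.8 CPM in WT and at 119, 105, and 104 CPM in Trpc1-/- samples (logFC 0.14, SE 0.08, adjusted P = 0.562 in edgeR). Kif23, a kinesin of the central spindle, was at 81.8, 74.5, 73.6, and 77.7 CPM in WT and at 88.0, 78.6, and 78.5 CPM in Trpc1-/- samples (logFC 0.09, SE 0.08, adjusted P = 0.688 in edgeR). WT replicate 1 was the highest WT sample for both and overlapped the Trpc1-/- samples for Kif23. Kif20a had a logFC of 0.23 and overlapping groups.

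Cdc20 and Ube2c act with the anaphase promoting complex to destroy mitotic cyclins. Cdc20 was at 34.1, 52.8, 57.4, and 52.0 CPM in WT and at 60.0, 49.6, and 59.9 CPM in Trpc1-/- samples (logFC 0.20, SE 0.17, adjusted P = 0.677 in edgeR). Ube2c was at 44.5, 73.6, 77.0, and 71.1 CPM in WT and at 89.4, 69.4, and 85.5 CPM in Trpc1-/- samples (logFC 0.29, SE 0.19, adjusted P = 0.603 in edgeR). In both genes Trpc1-/- replicate 2 lay below WT replicates 2 to 4. Over the 24 mitotic genes, 6 were higher at an unadjusted edgeR P under 0.05, against 4.51% of all genes. In 11 of them, each Trpc1-/- sample lay above each WT sample, against 7.15% of all genes.

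Other genes of replication and mitosis were read from lists of the same pathways. Of all genes tested, 48.1% had a logFC above 0 and 4.51% were higher at an unadjusted edgeR P under 0.05. DESeq2 called 0.962% of all genes higher. Of 61 other S-phase genes, 58 had a logFC above 0, with a median of 0.21, and 21 were higher and 0 lower at an unadjusted edgeR P under 0.05. DESeq2 called 8 of them. They included Orc1, of the origin recognition complex, with a WT level of 18.4 ± 0.783 CPM (SD, n = 4) and a Trpc1-/- level of 23.1 ± 0.0785 CPM (SD, n = 3), and an adjusted P of 0.000638 in DESeq2 and 0.381 in edgeR. Brca2, of recombination repair, was at 68.2 ± 3.28 and 84.5 ± 2.19 CPM. They also included Orc2, Dtl, Hells, Brca1 and E2f2, with logFC values between 0.25 and 0.33. Of 90 other mitotic genes tested, out of 91 listed, 86 had a logFC above 0, with a median of 0.21, and 32 were higher and 0 lower at an unadjusted edgeR P under 0.05. DESeq2 called Kif18a, a kinesin that aligns chromosomes, at 47.6 ± 1.21 and 59.9 ± 3.57 CPM, and with it Ncapg2, Aspm and Esco2, with logFC values of 0.30, 0.27 and 0.35. The G1 list of D cyclins, their kinases, pocket proteins and MuvB subunits had a median logFC of 0.03, with 11 of 16 above 0. Of its genes, DESeq2 called 0, and 2 (12.5%) were higher at an unadjusted edgeR P under 0.05, also above the 4.51% of all genes. Those were Rbl1 (logFC 0.20) and Lin9 (logFC 0.19), while Rb1, Lin54 and Cdk4 had logFC values of 0.15, 0.13 and 0.18. The difference between the G1 list and the others was not tested.

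The S-phase and mitotic genes varied together across the samples. A score for each class, the mean log2(CPM + 1) of its genes, was 5.57, 6.01, 6.10, and 5.99 for S phase in WT and 6.35, 6.13, and 6.22 in Trpc1-/- samples. The mitotic score was 6.37, 6.68, 6.71, and 6.68 in WT and 7.01, 6.75, and 6.84 in Trpc1-/- samples. Neither score overlapped between the groups. The S-phase score was higher by 0.31 in Trpc1-/- samples, and by 0.20 without WT replicate 1, and the mitotic score by 0.26 and by 0.18. Their difference, mitotic minus S-phase, had a mean on the log2 scale of 0.69 for WT (SD 0.08, n = 4) against 0.64 for Trpc1-/- samples (SD 0.03, n = 3). The groups overlapped in it, and it was largest in WT replicate 1, at 0.80.

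The level of the 42 genes followed that of erythroid genes from sample to sample. An erythroid score, the mean log2(CPM + 1) of 20 markers of red cell precursors, was 8.24, 8.53, 8.57, and 8.44 in WT and 9.0, 8.71, and 8.88 in Trpc1-/- samples. It put the samples in the same order as the S-phase score. Over the 7 samples, which share their library with both scores, Pearson's r was 0.933 and Spearman's rho 1.00 for the S-phase score, and r was 0.949 and rho 0.964 for the mitotic score. Without WT replicate 1 and Trpc1-/- replicate 1, the samples farthest from the median of the erythroid score, r was 0.968 and 0.972. Taken as deviations from the group means, r was 0.923 and 0.948. Single genes varied in this respect, with r between 0.312 for Cenpf and 0.988 for Ccne2, and above 0.8 in 36 of the 42. A shorter list of 8 erythroid genes without globins gave r values of 0.946 and 0.968. It shares Gata1, Klf1, Tal1, Epor and Tfrc with the longer list, so it is not an independent check. No member of the 42 is in either list.

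**Figure D3:**
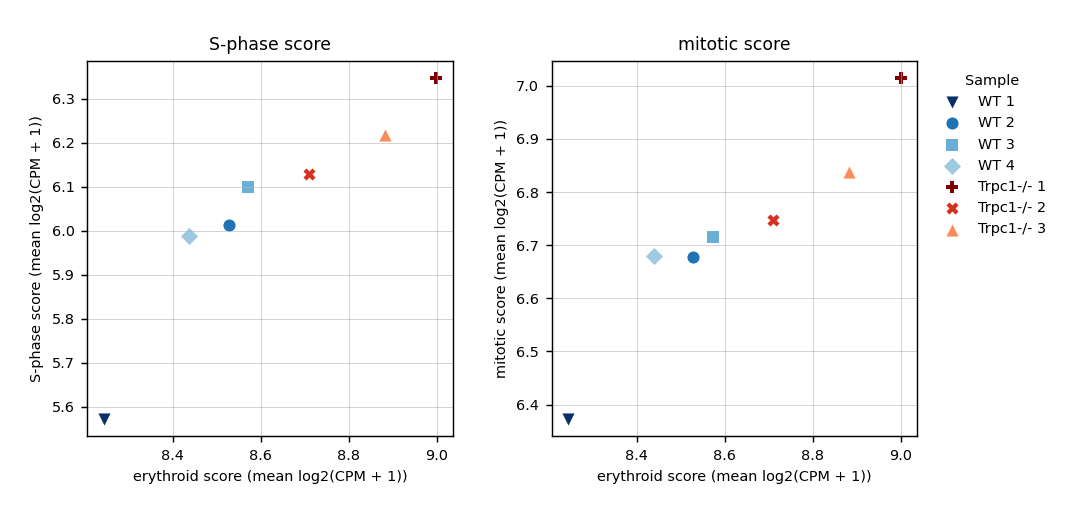
S-phase score (left) and mitotic score (right) of each sample against its erythroid score, all as mean log2(CPM + 1). WT samples are blue and Trpc1-/- samples red to orange, WT replicate 1 is lowest on both axes, and Trpc1-/- replicate 1 is highest on both.

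All 20 erythroid markers tested had a logFC above 0, 13 were higher at an unadjusted edgeR P under 0.05, and DESeq2 called 5 higher. Of all genes, these held for 48.1%, 4.51% and 0.962%. Their summed CPM lay between 20920.0 and 37920.0 in WT and between 43720.0 and 59170.0 in Trpc1-/- samples, and none was at 0 in any sample. For each other list of blood cell markers, r with the S-phase score was smaller without WT replicate 1. For granulocyte precursors it was 0.781 over the 7 samples and −0.0671 without WT replicate 1, and for neutrophils it was 0.802 and −0.146. Megakaryocyte genes gave 0.791 and 0.0495, and B-cell precursors 0.856 and 0.522. T cells gave 0.905 and 0.527, monocytes and macrophages 0.877 and 0.281. Progenitors gave 0.425 and 0.266, and mature B cells 0.632 and 0.313. Spearman's rho for T cells was 0.857 and 0.771, and with the mitotic score 0.929 and 0.886. With the mitotic score, r of these lists without WT replicate 1 lay between −0.0224 (neutrophils) and 0.484 (T cells). For the erythroid score, r without WT replicate 1 was 0.978 with the S-phase score and 0.939 with the mitotic score. Taken as deviations from the group means, however, other lists had an r with the S-phase score as high as that of the erythroid score, with 0.963 for granulocyte precursors, 0.946 for megakaryocytes, 0.938 for monocytes and macrophages and 0.91 for neutrophils. Chondrocyte genes gave no stable direction, with r of −0.354 over the 7 samples and −0.932 without WT replicate 1, but 0.745 without Trpc1-/- replicates 1 and 3, the samples farthest from the median, and 0.258 for deviations from the group means. Their summed CPM lay between 5551 and 6144 in WT and between 3166 and 5891 in Trpc1-/- samples, and 0 of the 12 had a logFC above 0. Osteoblast and endothelial genes behaved alike, with r of −0.412 and −0.436 with the S-phase score over the 7 samples. These were −0.786 and −0.824 without WT replicate 1, and 0.758 and 0.674 without Trpc1-/- replicates 1 and 3. Osteoclast genes gave 0.331 over the 7 samples and −0.597 without WT replicate 1, and muscle genes −0.197 and 0.614.

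When the erythroid score was added to the edgeR model as a covariate, the direction of most of the 42 genes turned. A logFC below 0 was found for 35 of the 42, against 52.4% of all genes tested, and the median was −0.18. At an unadjusted edgeR P under 0.05, 8 genes were lower (Cdc45, Ccnb2, Bub1b, Aurka, Aurkb, Kif20a, Cdc20 and Ube2c), against 8.55% of all genes, and 1 was higher (Cenpf), against 12.7%. Rrm2 (logFC 0.07) and Mki67 (logFC 0.18) stayed above 0 and had an unadjusted edgeR P above 0.05. This model spends a degree of freedom on a score that itself differed between the groups without overlap, by 0.42. The mitotic score minus the erythroid score differed by −0.16 between Trpc1-/- and WT samples, without overlap, while the S-phase score minus the erythroid score differed by −0.10, with overlap. Genotype and erythroid content were thus confounded in these samples, and their parts in the level of the 42 genes cannot be told apart.

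**Figure D4:**
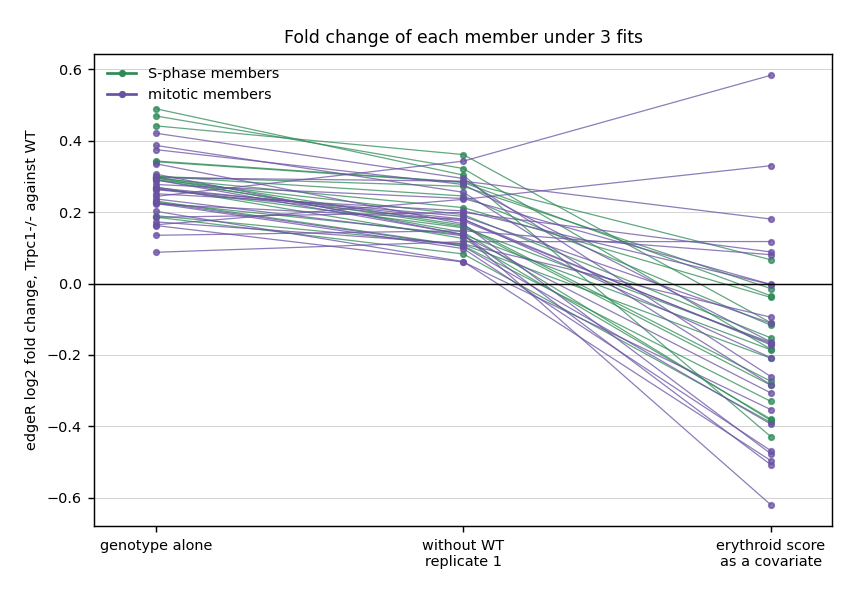
Log2 fold change of each of the 42 genes by edgeR, Trpc1-/- against WT, in 3 fits joined by a line per gene: all samples with genotype alone, without WT replicate 1, and all samples with the erythroid score as a covariate. All 42 lie above 0 in the first and the second, and 35 lie below 0 in the third.

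WT replicate 1 did not stand apart equally for all genes. Mki67, Cenpa, Cenpe, Cenpf, Kif23 and Anln, for which it was not the lowest sample, had annotated exon lengths between 5860.0 and 15433 bases. Of the 12 members with at least 5860.0 bases, the other 6 (Rrm1, Top2a, Prc1, Kif11, Mcm2 and Tyms) were lowest in WT replicate 1. Over the 42 genes, the difference of WT replicate 1 from the mean of the other WT samples correlated with log2 exon length at r = 0.571, across genes, which are not independent replicates. In 151 other genes of replication and mitosis r was 0.568, and in 16415 genes tested it was 0.238. The 21 members shorter than the median exon length had a median difference of −0.575 between WT replicate 1 and the other WT samples on the log2 scale, and the 21 longer ones of −0.323. The difference between genotypes without WT replicate 1 had a median of 0.16 in the shorter and 0.18 in the longer members. What set this sample apart was not tested. The study's methods give RNA integrity as an average over the samples, so its value in WT replicate 1 is not known here. Muscle genes, markers of a tissue beside the joint, were also highest in WT replicate 1, with a score of 7.13. The muscle score was 4.70, 4.29 and 2.82 in WT replicates 2 to 4 and 5.28, 6.23 and 6.74 in Trpc1-/- replicates 1 to 3. Without WT replicate 1, each Trpc1-/- sample thus lay above each WT sample in that score, with a difference of group means of 2.14.

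**Figure D5:**
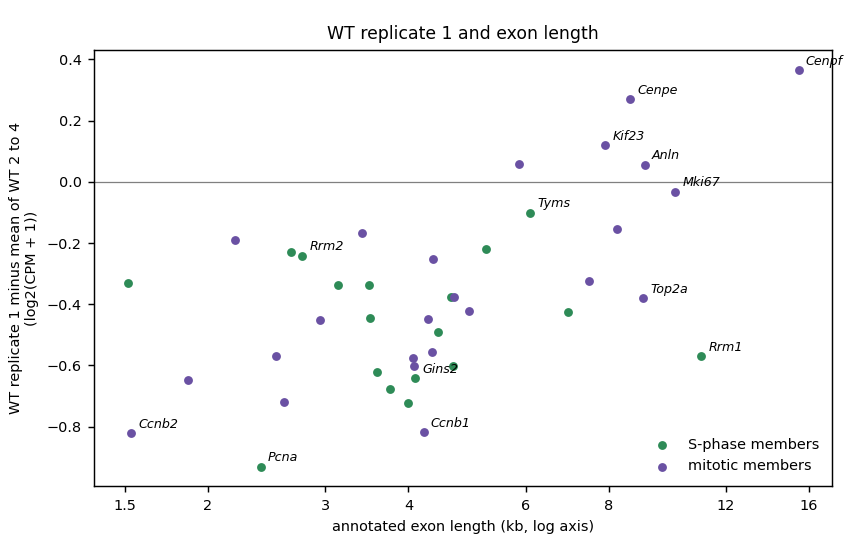
WT replicate 1 minus the mean of WT replicates 2 to 4 for each of the 42 genes, as log2(CPM + 1), against annotated exon length on a log axis. S-phase genes are green and mitotic genes purple, and the points above 0 are genes with exon lengths of 5860.0 bases or more.

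The genes lie on 16 chromosomes. Chek1, Ccnb2, Kif23 and Anln are on chromosome 9 with Trpc1, at 59, 25.3, 33.8 and 73.3 Mb from it, and their logFC values were 0.23, 0.31, 0.09 and 0.14.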

How the data were processed

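RNA-Seq was performed on 4 WT and 3 Trpc1-/- knee cartilage samples, each pooled from 2 to 3 mice. Ribosomal RNA was depleted and stranded libraries were made. The authors trimmed reads with cutadapt 2.5, aligned them to GRCm38 with HISAT2 2.1.0, and deposited estimated counts per gene from StringTie 2.0.3 coverage, which were whole numbers, so rounding changed none, and were not normalized. Reads shared with processed copies were assigned before this point. Replicates were not pooled, and all 7 sample columns were used.

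Genes with over 1 CPM in at least 2 samples were kept. In R 4.3.3, edgeR 4.0.16 normalized the counts by TMM and fitted its quasi-likelihood model, with genotype alone, followed by Benjamini-Hochberg adjustment over the 16429 genes tested and a threshold of 0.05. Standard errors came from the F statistic. DESeq2 1.42.0 (default settings) was run on the same genes. Both fits were tested on simulated data. The common dispersion was 0.0424, and totals of 52142451 to 118254070 counts put a floor of 3 counts at 0.0254 to 0.0575 CPM, which covers counting error only. All 42 genes stood far above it. Exon lengths came from GENCODE annotation, and promoters from RefSeq.

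The 42 genes and all lists were chosen with earlier results of these data known. Full values were given to genes called by either tool, to those with an unadjusted edgeR P under 0.05, to those whose groups did not overlap, and to the smallest and the largest P of each role group. From the other lists, genes called by either tool were named, or else the 5 with the smallest P. The values of 1 such gene are not reported here. No P was computed over the list or for a score. Alternatives were DESeq2, its size factors in edgeR, 2 other filters, the replicate block, the number range in the library names as a covariate or its 1300s alone, the erythroid score as a covariate, other settings of the scores, and each sample left out in turn.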

Additional observations from a re-analysis of the deposited data

Results flagged for a closer look

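Of 45 values examined in the 4 WT samples (the 42 genes and 3 scores), 9 had 1 sample far from the others, judged by the gap of the extreme sample to its neighbour as a share of the group's range against Dixon's critical value for 4 samples. Chance gives about 1 such value in 20 where values are independent. These came from the same 4 libraries and varied together, so the 9 cannot be set against that rate. The sample was WT replicate 1 in all 9. It was the low one for Mcm3 (0.883), Top2a (0.879), Ccnb1 (0.897), Aurka (0.889), Kif11 (0.839), Tpx2 (0.897), Prc1 (0.925) and the mitotic score (0.893), and the high one for Anln (0.856).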

How the results depend on the processing

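All 42 genes had a logFC above 0 in every edgeR and DESeq2 fit run except the edgeR fit with the erythroid score as a covariate. There the medians over all 42, the S-phase and the mitotic genes were −0.18, −0.18 and −0.17, 1 gene was higher at an unadjusted P under 0.05, and 35 genes were below 0: Ccnb2 (−0.62), Ube2c (−0.51), Cdc20 (−0.50), Ccnb1 (−0.48), Aurka (−0.47), Pcna (−0.43), Kif20a (−0.39), Cdc45 (−0.39), Mcm5 (−0.38), Mcm3 (−0.38), Bub1b (−0.35), Rrm1 (−0.33), Aurkb (−0.31), Mcm6 (−0.28), Ccna2 (−0.28), Mcm4 (−0.27), Nusap1 (−0.26), Cdt1 (−0.21), Tpx2 (−0.21), Chek1 (−0.19), Gins2 (−0.18), Birc5 (−0.17), Top2a (−0.17), Mcm7 (−0.17), Cdk1 (−0.16), Mcm2 (−0.15), Cdc6 (−0.12), Kif11 (−0.11), Ccne2 (−0.11), Bub1 (−0.094), Gins1 (−0.039), Ccne1 (−0.034), Tyms (−0.014), Plk1 (−0.0028) and Prc1 (−0.0023). The cause was not tested.

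Over all genes, edgeR called 0 and DESeq2 294, among them 2 of the 42. With each sample left out in turn, edgeR called between 0 and 52 genes, the 52 without WT replicate 1, and 0 of the 42 throughout. The number of the 42 higher at an unadjusted edgeR P under 0.05, 13 with all samples, was 21 with the number range as a covariate and 3 to 21 with single samples left out. It was 14 on the 1300s alone or with no filter, 15 with DESeq2 size factors in edgeR and 16 with over 1 CPM required in all 7 samples. Over all genes, 1643 of 16429 had such a P in either direction in the main fit. This was 2899 of 16429 with the number range and 2156 of 16203 on the 1300s. With no filter, DESeq2 size factors and the stricter filter it was 2058 of 35522, 1633 of 16429 and 1557 of 14814. Only WT replicates 3 and 4 had numbers in the 1700s. Both number settings thus set the Trpc1-/- samples against WT replicates 1 and 2. The number called by DESeq2 was 0 to 5 with single samples left out and 0 on the 1300s alone, both chosen after seeing the data. On the 1300s alone, DESeq2 called 52 of 16203 genes higher. Leaving out single samples gave the 42 genes a median logFC of 0.18 to 0.31 and gave the scores an r with the erythroid score of 0.909 to 0.978 (S phase) and 0.913 to 0.974 (mitosis). It was 0.974 and 0.981 on the 1300s alone, and 0.855 for the log2 of the summed mitotic CPM, a sum of which Mki67 forms a large share.

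With the replicate block, 0 of the 42 genes were higher at an unadjusted edgeR P under 0.05 and DESeq2 called 0, with a median logFC of 0.29. Over all genes, 972 of 16303 had such an edgeR P in either direction, and DESeq2 called 23 higher. Same-numbered samples did not deviate together (correlations of −0.45, −0.34 and −0.0044), so the numbers were not taken to pair them. The lowest count of any of the 42 genes in a sample was 321, and counting error was largest there.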
